A study of Mus musculus with 12 samples.

Results

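Macrophages sorted from MCA fibrosarcomas of S1PR1 knockout mice were set against macrophages from the same tumours of wild-type (WT) mice. Of the 12 arrays in the series, 4 belong to this comparison: 2 labelled S1PR1 KO and 2 labelled WT, chosen by those labels and not by any measured value. All 4 carry RNA of cells gated by FACS for high CD11b, pooled, from male C57BL/6 mice bearing an MCA fibrosarcoma, so the knockout of S1PR1 is the only difference the labels give between the groups. The labels name 2 systems for amplifying the RNA and do not say which arrays had which. The sources used here do not give the allele or Cre driver behind the knockout, the tumour's age or the number of animals per pool. The rest of the series includes 4 arrays of KO and WT macrophages from PyMT breast tumours, which serve here as an outside comparison. It also holds 3 mixed controls and a repeat of the first KO array. All 12 arrays were normalized together. Beyond that step the mixed controls were not used, and the repeat served only as a check.

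S1PR1 is a receptor coupled to G proteins of the Gi class for sphingosine-1-phosphate, a lipid that is abundant in blood and lymph and is released at sites of inflammation. In lymphocytes the receptor steers exit into lymph, and in endothelium it maintains the barrier. In myeloid cells it has been linked to survival, migration and the release of cytokines. Tumour-associated macrophages are cells of the monocyte lineage that take up debris, present antigen, remodel matrix and secrete growth factors and cytokines. The comparison asks which genes of these macrophages depend on the receptor.

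Expression was measured with single-colour Illumina BeadChips, on which many beads per probe report a mean fluorescence intensity. Values below are log2 intensities after background correction and quantile normalization, in which a gene at the floor of an array reads about 4, and differences are KO mean minus WT mean with a standard error (SE) from limma, with n = 2 arrays per group throughout. A probe counted as above background on an array where its deposited detection p was under 0.05, which held for 21849 to 23223 of 46237 probes on the 4 arrays, and 12581 genes were above background on at least 2 of them. The replicates spread widely, since the log2 difference between 2 arrays had an SD across genes of 0.389 between the KO arrays and 0.503 between the WT arrays, against 0.291 between the first KO array and its repeat on the other BeadChip. The first KO array lay as close to the first WT array (SD 0.377) as to its own replicate. The targeted gene could not serve as a check of the labels. The S1pr1 probe read 85.6 and 81.7 intensity units on the KO arrays and 80.1 and 76.4 on the WT arrays, with a detection p of 0.864 to 1, so it was not above background on any of the 4.

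No gene passed the test across all genes. Limma called 0 of 12581 genes (0%) at a Benjamini-Hochberg adjusted p under 0.05, and the smallest adjusted p was 1. At an unadjusted p under 0.05 there were 436 genes (3.47%), 237 higher (1.88%) and 199 lower (1.58%) in KO, fewer than the 629 that the nominal level would give. The 2 KO arrays lay above both WT arrays for 1958 genes (15.6%) and below both for 1848 (14.7%). All of what follows is therefore a description of these 4 arrays, and the words higher and lower refer to measured means that no adjusted test separated.

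Differences were kept apart by the wild-type array on which they rest. The group means differed by more than 1.5-fold for 588 genes (4.67%). Of these, 184 (1.46%) were past 1.5-fold from each WT array taken alone, 116 higher (0.922%) and 68 lower (0.54%) in KO. Another 149 (1.18%) were past 1.5-fold from the first WT array only, 70 higher (0.556%) and 79 lower (0.628%), and 255 (2.03%) from the second only. The second WT array carried a one-sided share, with 163 genes lower in KO (1.3%) against 92 higher (0.731%).

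**Figure D1:**
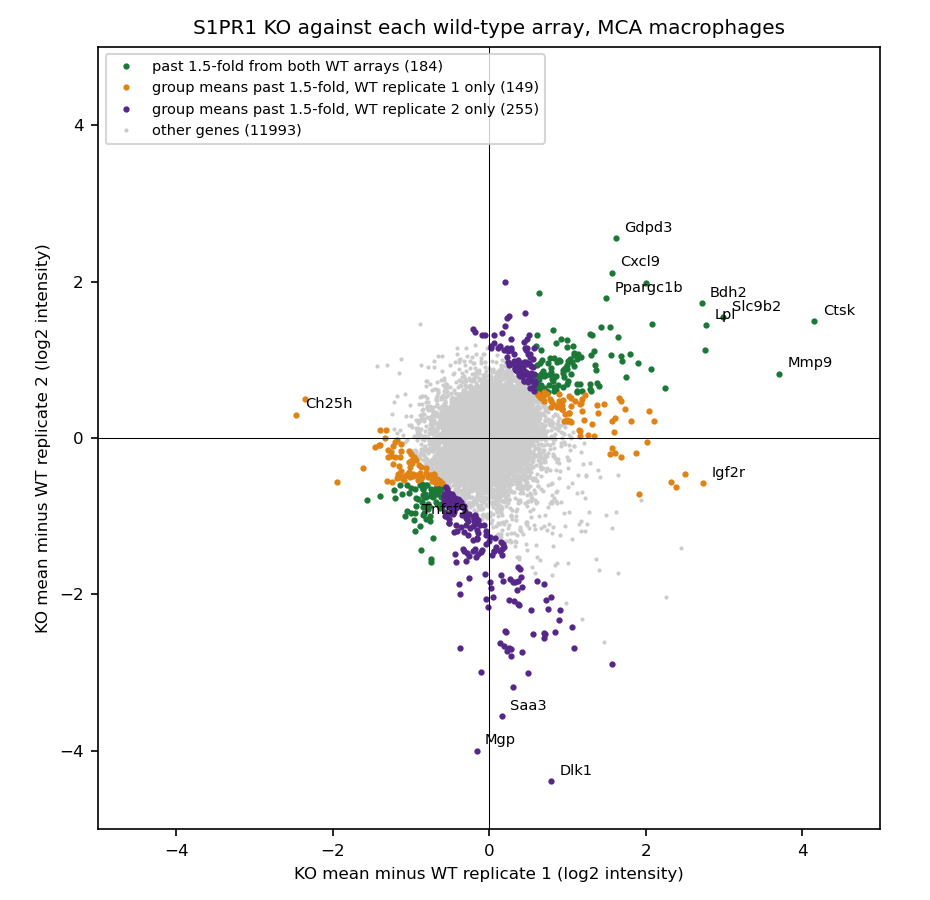
Each point is a gene, placed by the KO mean minus the first WT array (x axis, log2 intensity) and minus the second WT array (y axis, log2 intensity), and coloured by the WT arrays from which it is past 1.5-fold. Ctsk, Mmp9, Lpl, Slc9b2, Bdh2 and Gdpd3 lie far from both arrays in the upper right, whereas Mgp, Dlk1 and Saa3 lie far from the second WT array alone.

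The 1.5-fold class also depends on how the intensities are processed. Of the 184 genes, 22 stayed past 1.5-fold from both WT arrays with normexp (offset 50 in place of 16), with no background correction and with the authors' normalized values, whose method is not named, as well, 17 higher and 5 lower in KO. These were picked out after their values were seen. With the repeat in place of the first KO array, 21 of the 22 stayed in the class, and only Smox left it, at -0.54. In a bulk population such as these sorted pools, more cells of a type and more RNA per cell cannot be told apart, and this holds for every difference below.

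Among the 17 genes higher in KO, cathepsin K stood furthest from wild type. Ctsk encodes a lysosomal protease that degrades collagen and is best known from osteoclasts, the bone-resorbing cells of the macrophage lineage. Ctsk measured 8.55 and 8.10 on the KO arrays, against 4.17 and 6.83 on the WT arrays, a difference of 2.83 ± 0.80 (SE) or 7.09-fold. The first WT array was below background, and the groups did not overlap. Mmp9, a gelatinase that macrophages, osteoclasts and neutrophils secrete, measured 8.39 and 9.20 in KO and 5.09 and 7.97 in WT (2.27 ± 0.88). Its second WT array came close to the lower KO array.

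Slc9b2, a sodium/proton exchanger of the osteoclast lineage, measured 7.33 and 7.10 in KO, against 4.22 and 5.67 in WT (2.27 ± 0.46), with the first WT array below background. A further probe of Slc9b2 gave a difference of 1.94. Atp6v1b2, a subunit of the proton pump that acidifies lysosomes, measured 9.16 and 9.01 in KO and 8.13 and 8.30 in WT (0.87 ± 0.20). Both WT arrays of Atp6v1b2 agreed closely and lay below both KO arrays, at a bright level.

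Other metabolic enzymes and transporters were among the 17 genes. Lpl, the lipase that frees fatty acids from circulating triglycerides, measured 8.35 and 8.42 in KO and 5.62 and 6.94 in WT (2.11 ± 0.43). Bdh2, a cytosolic dehydrogenase linked to ketone use and iron siderophores, measured 7.67 and 7.12 in KO and 4.68 and 5.67 in WT (2.22 ± 0.38). Both genes had close KO arrays and a lowest value on the first WT array. Gdpd3, a lysophospholipase D, measured 7.74 and 7.43 in KO and 5.96 and 5.03 in WT (2.09 ± 0.34), and here the second WT array was the lowest. Abcb4, a phospholipid transporter, measured 6.77 and 6.30 in KO, against 4.46 and 5.08 in WT (1.77 ± 0.29). Lpl and Abcb4 are on the cholesterol and lipid metabolism list, on which 9 genes were higher and 12 lower in KO, with a median of -0.05. Tfrc, the transferrin receptor through which cells take up iron, measured 8.12 and 8.22 in KO and 6.26 and 7.21 in WT (1.43 ± 0.33), and its other probe gave 1.53. Xpr1, a phosphate exporter, measured 9.02 and 9.22 in KO and 7.42 and 8.14 in WT (1.34 ± 0.29), while its 5 other probes gave 0.04 to 0.96, all in the same direction.

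Receptors and an interferon-gamma chemokine complete the group. Nrp2, a co-receptor for semaphorins and lymphangiogenic VEGF-C, measured 7.41 and 8.11 in KO and 5.00 and 6.64 in WT (1.94 ± 0.55), and its 4 other probes gave 0.97 to 1.68. Plxnd1, a semaphorin receptor, measured 6.83 and 7.81 in KO and 5.76 and 6.26 in WT (1.31 ± 0.37), with another probe at 0.48. For Nrp2 and Plxnd1 the second KO array was the higher of its pair. Cxcl9, a chemokine that draws T cells, measured 9.05 and 7.43 in KO and 6.67 and 6.13 in WT (1.84 ± 0.53), so the size of its difference came mostly from the first KO array, whose repeat read 9.06. Cyp2s1, a cytochrome P450, differed by 1.99 ± 0.47, Rai14, an actin-binding protein, by 1.18 ± 0.20 (another probe 0.62), Mindy2, a deubiquitinase, by 1.02 ± 0.28 and D130026O08Rik by 1.48 ± 0.39. On the first WT array 15 of these 17 genes had their lowest value, and the remaining pair, Gdpd3 and Cxcl9, had it on the second.

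**Figure D2:**
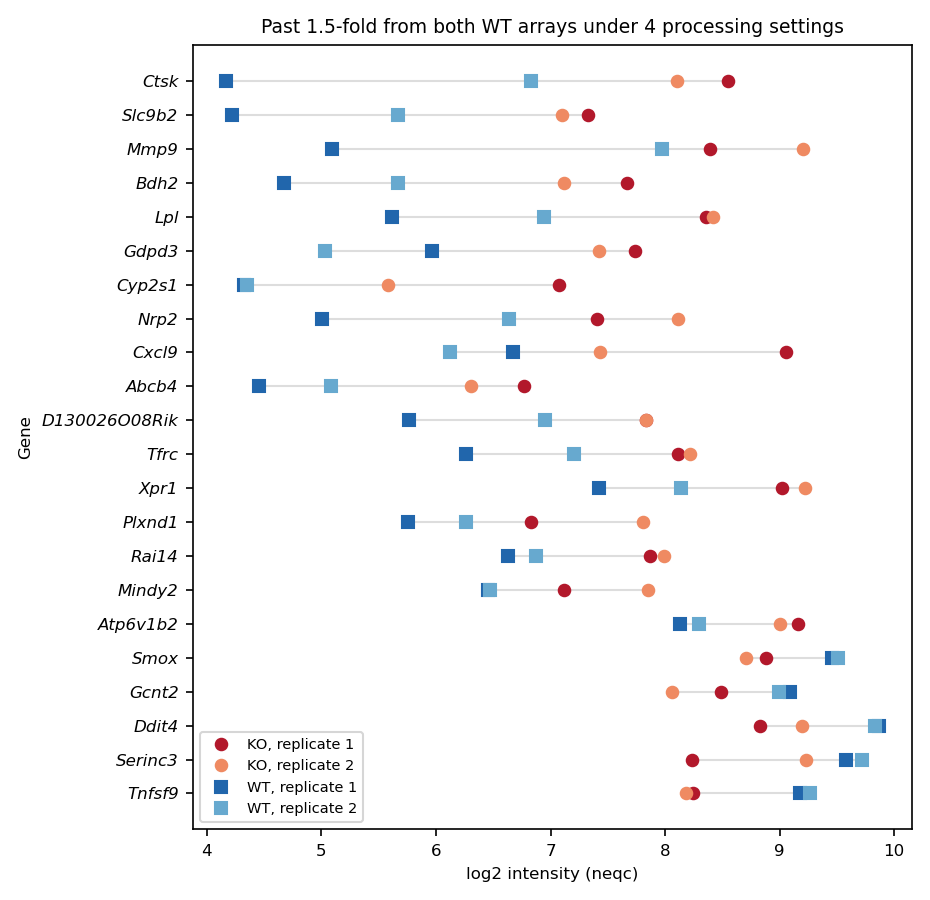
Log2 intensity (x axis) of the 22 genes past 1.5-fold from both WT arrays under 4 ways of processing the intensities, with circles for the KO arrays and squares for the WT arrays. The groups do not overlap for any of them, and for most genes higher in KO, such as Ctsk at 4.17 and Lpl at 5.62, the first WT array is the lowest point.

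Because Ctsk, Mmp9 and Slc9b2 are known from osteoclasts, a list of genes of that lineage was written after their values were seen, and it is given as a description only. Of its 18 genes on the array, 15 counted as above background. Calcr and Atp6v0d2 were below it on all 4 arrays, and Car2 was above it on only 1. Of the 15 genes, which include Ctsk, Mmp9 and Slc9b2 themselves, 11 were higher and 4 lower in KO. Their median difference was 0.29, against 0.00 over all genes. Those past 1.5-fold from both WT arrays (0.922% of all genes on the higher side) were Ctsk, Mmp9, Slc9b2, Src and Ppargc1b, the genes that prompted the list or share its fold class. Src, a kinase needed for the osteoclast's ruffled border, measured 5.74 and 5.62 in KO and 4.36 on each WT array (1.31 ± 0.19), but its other 2 probes gave 0.27 and 0.22. Ppargc1b, a coactivator of mitochondrial biogenesis that osteoclasts use, measured 5.94 and 6.36 in KO and 4.65 and 4.36 in WT (1.64 ± 0.24). Both genes are dim, and neither kept the 1.5-fold distance without background correction.

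The regulators and enzymes that define the lineage differed less. Nfatc1, its main transcription factor, measured 7.52 and 8.06 in KO and 7.47 and 7.27 in WT (0.42 ± 0.25), while its 5 other probes gave 0.39 to 1.55, all higher in KO. Tnfrsf11a, which encodes the receptor RANK, measured 7.35 and 7.12 in KO and 7.06 and 6.85 in WT (0.28 ± 0.21). Acp5, the tartrate-resistant acid phosphatase used to stain osteoclasts, measured 5.59 and 5.53 in KO and 5.21 and 5.55 in WT (0.18 ± 0.21). Itgb3, the beta chain of the vitronectin receptor, measured 4.32 and 4.18 in KO and 4.57 and 4.63 in WT (-0.35 ± 0.19).

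Of the remaining genes of the naming rule, those with the smallest limma p in the class past 1.5-fold from both WT arrays were mostly dim. Fam102a, which is induced by oestrogen, had 6.30 and 6.44 in KO and 4.95 on each WT array (1.42 ± 0.19). Rufy4, an autophagy-linked protein, differed by 1.31 ± 0.20, Inpp4b, a phosphoinositide phosphatase, by 1.13 ± 0.19, Pmp22, a myelin protein also found outside nerve, by 1.10 ± 0.19, and 4930487H11Rik and Cwf19l1 by 1.47 and 1.23. Probes of one gene did not always agree. The other probes of Inpp4b gave 0.08 and 0.15 and that of Cwf19l1 gave 0.01, whereas that of Pmp22 gave 0.69. For Cwf19l1 the repeat array read 4.91 where the first KO array read 6.13.

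Tnfsf9 had the smallest p among the genes at least 1.5-fold lower in KO than both WT arrays, of which 8 had a larger difference. It encodes 4-1BB ligand, a co-stimulatory member of the TNF superfamily on antigen-presenting cells. Tnfsf9 measured 8.24 and 8.18 on the KO arrays, against 9.18 and 9.26 on the WT arrays, which is 2.01-fold lower (-1.01 ± 0.19). The gap between groups was far wider than the gap within either, and the repeat array read 8.33. Ddit4, a stress-induced inhibitor of mTORC1, measured 8.83 and 9.20 in KO and 9.87 and 9.83 in WT (-0.84 ± 0.22). Serinc3, a multipass membrane protein, measured 8.23 and 9.23 in KO and 9.58 and 9.71 in WT (-0.91 ± 0.35), so its KO arrays differed from each other by more than its WT arrays did.

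Gcnt2, a glycosyltransferase that branches poly-lactosamine, measured 8.49 and 8.06 in KO and 9.09 and 9.0 in WT (-0.77 ± 0.23), with other probes from -1.18 to 0.29. Smox, a polyamine oxidase, measured 8.88 and 8.70 in KO and 9.46 and 9.51 in WT (-0.69 ± 0.19), with other probes from -0.71 to -0.07. For each of the 5 genes the 2 WT arrays lay close together. Dimmer genes of the same class included Sipa1l1, a GTPase-activating protein for Rap (-1.16 ± 0.25), and Arhgap22, a GTPase-activating protein for Rac (-0.90 ± 0.19). Others were Ttll3, a tubulin glycylase (-1.06), Olfr222, an olfactory receptor (-1.01), and Abcd3, a peroxisomal transporter (-0.96). Hip1, an endocytic adaptor (-0.85), and Josd1, a deubiquitinase (-0.86), were also among them. The naming rule also took Tubd1, Extl2, Neurl1a and 2600001G24Rik, at -0.91, -0.84, -0.99 and -0.82. The other probes of Abcd3 gave -0.33 to -0.13, those of Ttll3 gave -0.21 and 0.27, and that of Tubd1 gave -0.27.

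Genes of the NLRP3 inflammasome and the IL-1 family, which build and process the cytokine IL-1beta, had lower KO means for 17 of 20 above background and higher ones for 3, where 49.9% of all genes were lower. For 13 of the 20 (65%) the KO mean lay between the 2 WT arrays, against 43.8% of all genes, so for most of the list the side depends on the WT array. Across the list the median difference was -0.10 (-0.24 from the first and -0.13 from the second WT array). Nlrp3, the sensor, measured 9.34 and 9.41 in KO and 9.85 and 10.10 in WT (-0.60 ± 0.20), and its other probe gave -0.60. Il1r2, the decoy receptor, measured 8.06 and 8.08 in KO and 8.58 and 9.16 in WT (-0.80 ± 0.25). The KO arrays of both genes were nearly equal, and the second WT array was the higher. Il1a measured 8.79 and 8.86 in KO and 9.23 and 9.54 in WT (-0.56 ± 0.21), and the channel gene Panx1 5.45 on each KO array and 5.87 and 6.00 in WT (-0.48 ± 0.19). Il1b itself measured 10.18 and 10.08 in KO and 10.41 and 10.44 in WT (-0.30 ± 0.19). For all of Nlrp3, Il1r2, Il1a, Panx1 and Il1b the groups did not overlap, which held for 5 lower genes of the list (14.7% of all genes) and 0 higher ones (15.6% of all genes).

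The TNF superfamily and co-stimulation list had 12 lower and 5 higher genes of 17, with a median of -0.12, which was -0.27 from the first and -0.13 from the second WT array and ranged from -0.27 to -0.016 with 1 array left out. Tnf measured 7.30 and 7.38 in KO and 7.81 and 8.23 in WT (-0.68 ± 0.22), and its other probe gave -0.68. Cd40, the receptor through which T cells license macrophages, measured 7.05 and 7.26 in KO and 7.52 and 7.74 in WT (-0.48 ± 0.21), with its 4 other probes at -0.50 to -0.24. Tnfsf14, the ligand LIGHT, measured 5.62 and 4.85 in KO and 5.80 and 6.24 in WT (-0.78 ± 0.32), but its other probes gave -0.25 and 0.02. Classical activation genes, which share Tnf with that list, were lower for 10 of 13, among them the chemokines Ccl3 (-0.54 ± 0.20) and Cxcl1 (-0.53 ± 0.25). Their median was -0.17, with -0.125 from the first and -0.433 from the second WT array.

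Immediate early genes, which cells switch on within minutes of a stimulus or of tissue dissociation, showed the same side. Of 22, 16 were lower in KO, 11 of them with no overlap between groups (14.7% of all genes), against 2 higher with no overlap (15.6% of all genes). The median difference was -0.145, with -0.092 from the first and -0.254 from the second WT array. Dusp2, a MAP kinase phosphatase, measured 8.79 and 8.81 in KO and 9.36 and 9.30 in WT (-0.53 ± 0.19). Egr1 measured 9.70 and 9.57 in KO and 9.93 and 10.40 in WT (-0.53 ± 0.23), and Fos 9.71 and 9.66 in KO and 10.10 and 9.96 in WT (-0.35 ± 0.19). The part of these immediate early genes in the lower cytokine values was not tested.

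MHC class II genes, which present antigen to CD4 T cells, lay on the other side. Of 13 above background, 12 were higher in KO (50.1% of all genes), 9 with no overlap between groups (15.6%), and the median difference was 0.35, with 0.34 from the first and 0.24 from the second WT array. H2-Eb1 measured 10.37 and 10.57 in KO and 9.72 and 10.09 in WT (0.57 ± 0.22). H2-Aa measured 9.65 and 9.47 in KO and 8.94 and 9.31 in WT (0.44 ± 0.22). Cd74, the invariant chain, measured 12.43 and 12.30 in KO and 11.86 and 12.13 in WT (0.38 ± 0.21), and its other probes gave 0.35 and 0.44. Ciita, the transactivator of these genes, measured 5.64 and 5.60 in KO and 5.15 and 5.40 in WT (0.34 ± 0.20). The differences were small and ran the same way in genes over a wide range of brightness. Dendritic cell markers, whose cells are rich in MHC class II, had 7 of 10 higher with a median of 0.23 against the WT mean but 0.14 from the first and 0.11 from the second WT array, and their summed linear intensity was 455 and 488 in KO and 392 and 440 in WT. Their part in the class II values was not tested.

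Genes of oxidative phosphorylation, whose products form the respiratory chain and ATP synthase, were higher in KO for 46 of 53, and 24 of these had no overlap between groups (15.6% of all genes). The median difference was 0.18, with 0.10 from the first and 0.27 from the second WT array. Ndufv1, a complex I subunit, measured 8.12 and 7.95 in KO and 7.14 and 7.48 in WT (0.73 ± 0.22). Sdha of complex II measured 6.38 and 6.24 in KO and 5.60 and 5.97 in WT (0.53 ± 0.22), Cyc1 of complex III 6.54 and 6.38 in KO and 6.09 and 5.84 in WT (0.50 ± 0.21), and Cox7a2 of complex IV 5.12 and 5.43 in KO and 4.76 and 4.48 in WT (0.65 ± 0.22). Each of these subunits was higher on both KO arrays than on both WT arrays. By array, however, the list's median deviation from each gene's mean was 0.17 and 0.02 in KO and 0.01 and -0.18 in WT, so the second KO and the first WT array were alike.

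Regulators of mitochondria and fatty acid oxidation split. Of 21 genes, 14 were higher in KO, with a median of 0.08. Besides Ppargc1b and Bdh2, Slc27a1, a fatty acid transporter, measured 6.82 and 6.67 in KO and 5.75 and 6.05 in WT (0.84 ± 0.21). Esrra, the nuclear receptor that works with PGC-1 coactivators, measured 6.23 and 6.30 in KO and 5.88 and 5.48 in WT (0.59 ± 0.22), and Gabpa, a further activator of respiratory chain genes, 5.92 and 6.02 in KO and 5.58 and 5.10 in WT (0.63 ± 0.23, other probes 0.41 and 0.16). For Esrra and Gabpa the 1.5-fold distance held from the second WT array only. In the glutathione and redox list 19 of 27 genes were higher, with a median of 0.13. Its 3 theta-class transferases led: Gstt1 measured 5.42 on each KO array and 4.42 and 4.17 in WT (1.12 ± 0.20), with 1 WT array below background, Gstt3 measured 5.63 and 5.81 in KO and 5.24 and 4.45 in WT (0.87 ± 0.30), and Gstt2 5.53 and 5.87 in KO and 5.16 and 4.96 in WT (0.64 ± 0.22), with a further Gstt2 probe at -0.15.

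**Figure D3:**
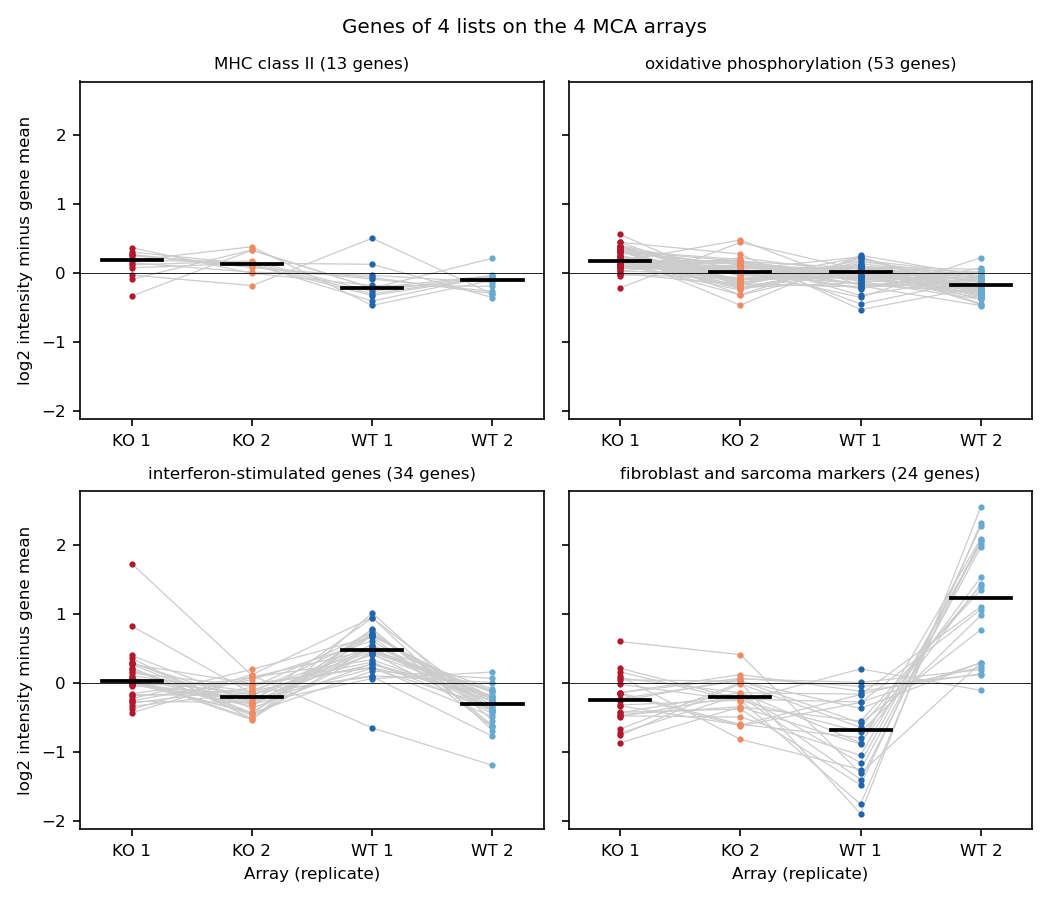
Log2 intensity minus each gene's mean over the 4 arrays (y axis) for the genes of 4 lists on each array (x axis), with grey lines joining a gene and black bars at the median. MHC class II genes have higher medians on both KO arrays (0.18 and 0.13) than on the WT arrays (-0.21 and -0.10), interferon-stimulated genes sit highest on the first WT array (median 0.47) and fibroblast and sarcoma markers on the second (median 1.23).

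Interferon-stimulated genes show why the WT arrays were kept apart. These genes encode antiviral effectors induced when cells sense interferons. Against the mean of both WT arrays, 28 of 34 were lower in KO, with a median of -0.22. Against the first WT array the median was -0.61, and against the second it was 0.19, because the 2 WT arrays differed from each other by 0.71. The first WT array was the highest of the 4 for 27 of the 34 genes, and the second was the lowest for 22. Isg15, a ubiquitin-like antiviral protein, measured 9.03 and 8.60 in KO and 9.72 and 8.79 in WT. Oas3, an oligoadenylate synthetase that senses double-stranded RNA, measured 6.31 and 6.29 in KO and 7.51 and 6.18 in WT, Rsad2, which encodes viperin, 9.51 and 8.92 in KO and 9.97 and 9.35 in WT, and Usp18, the protease that removes ISG15, 7.85 and 7.25 in KO and 8.80 and 7.24 in WT. Other probes gave -0.16 for Oas3 and -0.11 for Usp18. In Isg15, Oas3 and Usp18 the KO arrays lay within or near the range of the WT arrays, and only 1 gene of the list, Trim30a, lay below both WT arrays on both KO arrays. Cxcl9 was the 1 gene of the list with both KO arrays above both WT arrays.

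The promoters of these genes show what the list shares apart from its values. The motif searched was GAAA, any 2 bases and GAAA again, the core of the interferon-stimulated response element, on both strands of the 300 bases around each start site, and overlapping matches were joined. A gene counted as holding it if any of its promoters did. It was present for 16 of the 26 interferon-stimulated genes with a promoter in the table (61.5%, 95% Wilson interval 42.5 to 77.6%). The share was 368 of 9146 genes above background with a promoter (4.02%) and 1079 of all 27025 genes with a promoter (3.99%). A shorter form without the last A, which every full match also contains, gave 65.4% of those 26 genes and 9.76% of all genes with a promoter. Cxcl9 holds this shorter form but not the full motif. Among the 13 genes with a promoter that lay at least 1.5-fold below the first WT array, a subset chosen after seeing the data, 9 held the motif (69.2%). A match describes these letters and is not a measured binding site. Isg15, Oas3 and Rsad2 are printed because they carry the motif and were highest on the first WT array, and Cxcl9 because both its KO arrays lay above both WT arrays. Sequences are those of RefSeq on GRCm38.p6, 5′ to 3′ on the gene's strand, all 4 on the minus strand, with motif matches in capitals: Isg15 at chr4:156200769-156201068, Oas3 at chr5:120777610-120777909, Rsad2 at chr12:26456403-26456702 and Cxcl9 at chr5:92328030-92328329, in which this motif was not found.
Isg15: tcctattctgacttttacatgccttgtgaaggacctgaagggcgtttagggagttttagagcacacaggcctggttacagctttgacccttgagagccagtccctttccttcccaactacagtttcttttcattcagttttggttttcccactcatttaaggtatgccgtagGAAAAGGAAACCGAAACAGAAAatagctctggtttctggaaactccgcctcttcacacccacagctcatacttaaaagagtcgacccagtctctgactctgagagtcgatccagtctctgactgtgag
Oas3: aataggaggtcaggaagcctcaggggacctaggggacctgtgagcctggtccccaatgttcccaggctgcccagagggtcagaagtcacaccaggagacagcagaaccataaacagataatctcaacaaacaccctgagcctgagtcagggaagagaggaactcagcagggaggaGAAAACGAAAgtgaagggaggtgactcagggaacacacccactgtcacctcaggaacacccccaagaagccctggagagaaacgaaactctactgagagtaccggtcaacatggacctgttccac
Rsad2: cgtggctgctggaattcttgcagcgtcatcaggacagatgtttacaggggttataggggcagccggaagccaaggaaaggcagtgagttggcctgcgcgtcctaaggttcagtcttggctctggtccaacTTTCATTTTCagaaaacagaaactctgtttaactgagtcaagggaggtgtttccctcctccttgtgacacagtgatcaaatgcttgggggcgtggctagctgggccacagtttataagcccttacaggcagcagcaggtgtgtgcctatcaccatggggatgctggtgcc
Cxcl9: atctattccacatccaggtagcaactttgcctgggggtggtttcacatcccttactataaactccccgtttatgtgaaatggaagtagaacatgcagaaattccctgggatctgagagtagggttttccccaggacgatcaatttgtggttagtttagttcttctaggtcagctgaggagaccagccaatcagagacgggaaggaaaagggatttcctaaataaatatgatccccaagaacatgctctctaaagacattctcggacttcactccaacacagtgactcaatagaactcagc

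The second WT array carried a separate set, the markers of fibroblasts and sarcoma cells, which make collagen and other matrix and form the tumour itself. Of 24 above background, 22 had their highest value on that array. Their summed linear intensity was 2093 and 1988 on the KO arrays and 1327 and 5593 on the WT arrays. The KO mean lay between the 2 WT arrays for 20 of the 24 (83.3%), against 43.8% of all genes, and the median difference was 0.41 from the first WT array and -1.65 from the second. Col1a1, a collagen I chain, measured 6.27 and 6.34 in KO and 4.84 and 8.91 in WT. Sparc, a matrix protein, measured 6.99 and 7.04 in KO and 5.94 and 9.69 in WT, and Col3a1 5.04 and 5.34 in KO and 4.13 and 7.60 in WT. In each the 2 KO arrays were close together in the wide gap between the WT arrays. Pdgfrb was below background on all 4 arrays.

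The genes with the largest differences resting on the second WT array alone are not on that list. Mgp, a matrix protein that inhibits calcification, measured 4.28 on each KO array, where it was not above background, and 4.44 and 8.28 in WT, which is at least 4.23-fold lower in KO. Dlk1, an imprinted membrane protein of precursor cells, measured 5.05 and 4.82 in KO and 4.15 and 9.32 in WT, Saa3, an acute-phase protein, 4.46 and 5.38 in KO and 4.75 and 8.47 in WT, and Peg10, an imprinted retrotransposon-derived gene, 4.64 and 4.31 in KO and 4.18 and 7.67 in WT. For Dlk1, Saa3 and Peg10 the KO mean was above the first WT array. Glp1r and Nfatc4 had group differences of -1.55 and -1.53. Monocyte markers also peaked on that array for 8 of 11 genes, with a median of 0.22 from the first WT array and -0.94 from the second. They include genes that fibroblasts express too, such as the fibronectin gene Fn1, 7.39 and 6.93 in KO and 7.27 and 8.62 in WT (other probes -1.45 to -0.07), and Ace 4.19 and 4.70 in KO and 4.22 and 7.16 in WT. Chil3, a monocyte marker that is not on the fibroblast and sarcoma list, differed by -2.03 from the second WT array. Against the mean of both WT arrays its difference was 0.115, so its KO mean lay above the first WT array. The part of fibroblast RNA in the monocyte marker values was not tested.

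Of the 92 genes higher in KO that rest on the second WT array alone (0.731%), 3 were on the cell cycle list and 1, Pdgfb, on that of angiogenic factors. Mcm7, a subunit of the replicative helicase, measured 6.11 and 6.70 in KO and 6.2 and 4.40 in WT, so 1 WT array lay inside the KO range, and its other probe gave 0.10. Pdgfb, a growth factor for pericytes, measured 7.08 and 7.16 in KO and 6.86 and 5.55 in WT, and Smpd1, the acid sphingomyelinase, 6.86 and 6.87 in KO and 6.36 and 5.55 in WT, although its other probes gave 0.13 and -0.10. Mag, Gtf3c5 and Gstt3 complete those named by the rule, at 1.02, 0.88 and 0.87, with other probes at 0.14 for Mag and at 0.01 and 0.06 for Gtf3c5. In the cell cycle list 22 of 30 genes were higher in KO (median 0.19), but the median was 0.05 from the first WT array and 0.39 from the second, which was the lowest of the 4 arrays for 22 genes. Birc5, the mitotic protein survivin, measured 7.02 and 7.05 in KO and 6.81 and 5.89 in WT, and the mitotic kinase gene Aurka 6.66 and 6.73 in KO and 6.49 and 5.73 in WT.

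The first WT array set other genes apart. Ch25h, the interferon-induced enzyme that makes 25-hydroxycholesterol, measured 6.93 and 5.74 in KO and 8.80 and 6.04 in WT. Klrb1b, a lectin receptor, measured 5.40 and 4.89 in KO and 7.10 and 5.70 in WT (-1.25 ± 0.47), and Il27, a subunit of an immunoregulatory cytokine, 5.07 and 4.65 in KO and 6.16 and 5.41 in WT (-0.92 ± 0.31). Klrb1b and Il27 lay below both WT arrays and only their distance from the second was short of 1.5-fold, whereas the Ch25h arrays overlapped. Lilra5, AA467197 and Mapkapk3 had group differences of -1.0, -0.93 and -0.90. On the other side, Igf2r, which carries lysosomal enzymes, measured 8.07 and 7.66 in KO and 5.13 and 8.44 in WT, S100a4, a calcium-binding protein of motile cells, 8.39 and 8.20 in KO and 6.48 and 8.08 in WT, and Myo10, an unconventional myosin, 5.65 and 6.07 in KO and 4.20 and 5.34 in WT. Srgap3, 2810025M15Rik, Lrrc8a and 1200011A11Rik had group differences of 1.19, 1.17, 1.08 and 1.06. Other probes gave 0.41 and 0.13 for Myo10, 0.63 and 0.18 for Srgap3, 0.21 for Lrrc8a and -0.56 to -0.07 for Klrb1b. The low value of the first WT array in Igf2r and S100a4 goes the same way as in Ctsk, Lpl and Slc9b2. The first WT array was also the lowest for 17 of the 24 fibroblast and sarcoma markers, a list that includes S100a4 itself. The part of those markers in the higher values of Ctsk, Lpl and Slc9b2 was not tested. On the second WT array, where those markers were highest, Ctsk read 6.83, Lpl 6.94 and Slc9b2 5.67, each below both KO arrays. These genes were chosen as past 1.5-fold from both WT arrays, so a lower value there was set by that choice.

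The sorted cells carried the markers of their label. Macrophage genes were bright on all 4 arrays: Lyz2, which encodes lysozyme, measured 11.05 and 10.86 in KO and 10.76 and 10.90 in WT, Adgre1, the F4/80 antigen, 8.54 and 8.16 in KO and 8.38 and 8.42 in WT, and Cd68 9.25 and 9.36 in KO and 9.37 and 9.21 in WT. Csf1r, the receptor for the growth factor of the lineage, measured 7.80 and 7.59 in KO and 7.56 and 7.97 in WT. The groups overlapped for all of these 4. Itgam, which encodes the CD11b used in the sort, measured 7.78 and 7.74 in KO and 8.16 and 8.23 in WT (-0.44 ± 0.19), without overlap. Of 16 identity genes 12 were lower in KO, with a median of -0.10. Mertk, a receptor for dying cells, measured 6.38 and 6.32 in KO and 6.64 and 7.38 in WT (-0.66 ± 0.28), Fcgr1, the high-affinity IgG receptor, 6.46 and 6.10 in KO and 7.57 and 6.52 in WT (-0.77 ± 0.37), and Itgax, which encodes CD11c, 6.10 and 6.11 in KO and 7.36 and 6.34 in WT (-0.74 ± 0.35). Both Fcgr1 and Itgax were highest on the first WT array and Mertk on the second. Other probes gave -0.04 for Itgax and 0.25 for Csf1r.

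Other cell types gave weak signals. T and NK cell markers were above background for 8 of 17 on the array, with a summed intensity of 396 and 457 in KO and 460 and 403 in WT. Cd4 and Il7r were among these 8, whereas Cd3d, Cd3g and Cd8a were below background on all 4 arrays. Endothelial markers were above it for 6 of 13, with a summed intensity of 139 and 183 in KO and 152 and 143 in WT. Pecam1, Cdh5 and Kdr were among these 6, whereas Emcn, Tek and Cldn5 were below background throughout. Epithelial markers were above it for 3 of 14, namely Krt14, Cdh1 and Ltf, with Epcam, Krt8 and Krt19 below it throughout. Skeletal muscle markers were above it for 4 of 13. Neutrophil markers were above it for 10 of 14, with Cxcr2 and Retnlg below it throughout, and their summed intensity of 572 and 964 in KO against 264 and 544 in WT includes Mmp9. S100a9, the abundant calcium-binding protein of neutrophils, measured 5.21 and 7.15 in KO and 4.16 and 6.23 in WT. S100a8 and Lcn2 of the same list were above background on only 1 array each. The S100a8 probe read 87.9 and 86.6 intensity units in KO and 82.9 and 104.8 in WT, so its highest value was on the second WT array. For both S100a9 and Mmp9 the first WT array was the lowest of the 4 and the second KO array the highest, but the S100a9 groups overlapped and those of Mmp9 did not. Of the 10 neutrophil genes above background, 6 were higher and 4 lower in KO. Mmp9 and Ngp were past 1.5-fold above both WT arrays (0.922% of all genes). Ngp was dim, at a mean of 4.94 in KO and 4.14 in WT. The part of neutrophil RNA in the Mmp9 values was not tested.

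The S1P system itself differed little between the groups. Of 19 receptor and enzyme genes above background, 9 were higher and 10 lower, with a median of -0.03. S1pr2, a receptor that opposes migration, was the bright one, at 8.93 and 8.97 in KO and 9.51 and 9.12 in WT (-0.36 ± 0.22), and its other probe gave -0.43. Sgpp2, an S1P phosphatase, was not above background on the KO arrays and read 4.52 and 4.83 in WT, at least 1.36-fold lower in KO. Sphk1, a kinase that makes S1P, measured 4.49 and 4.35 in KO and 4.54 and 5.10 in WT (-0.40 ± 0.25). Among angiogenic and lymphangiogenic factors 7 of 13 were higher, with Nrp2 and Pdgfb in front. In the matrix protease list, Mmp13, a collagenase, was lower, at 7.68 and 7.86 in KO and 8.37 and 8.63 in WT (-0.73 ± 0.21, other probes -0.52 and -0.31), opposite to Ctsk and Mmp9, and the list as a whole had 8 higher and 12 lower. Medians of the lists for cholesterol and lipid metabolism, hypoxia and glycolysis, phagocytic receptors, chemokines, alternative activation, NF-kappaB, heat shock proteins, MHC class I and cytosolic ribosomal proteins lay between -0.05 and 0.10 against the WT mean, but some changed side with the WT array. From the first and the second WT array the median was -0.11 and 0.32 for MHC class I, 0.30 and -0.18 for alternative activation, 0.16 and -0.15 for NF-kappaB, 0.08 and -0.06 for chemokines and -0.16 and 0.03 for phagocytic receptors. Within these lists Clec7a, the beta-glucan receptor dectin-1, measured 9.19 and 8.73 in KO and 8.33 and 8.32 in WT (0.63 ± 0.23), Hspd1, the mitochondrial chaperonin, 7.35 and 8.14 in KO and 6.92 and 6.72 in WT (0.93 ± 0.30), and Srebf1, a regulator of lipid synthesis that was not above background in KO, 4.09 and 4.17 in KO and 4.70 and 4.58 in WT. The dendritic cell transcription factor Batf3 measured 4.78 and 4.87 in KO and 5.41 and 5.24 in WT (-0.50 ± 0.20), against the direction of its list, and Cdc6 of the cell cycle list differed by 0.65 ± 0.26, with other probes at 0.02 and 0.07.

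**Figure D4:**
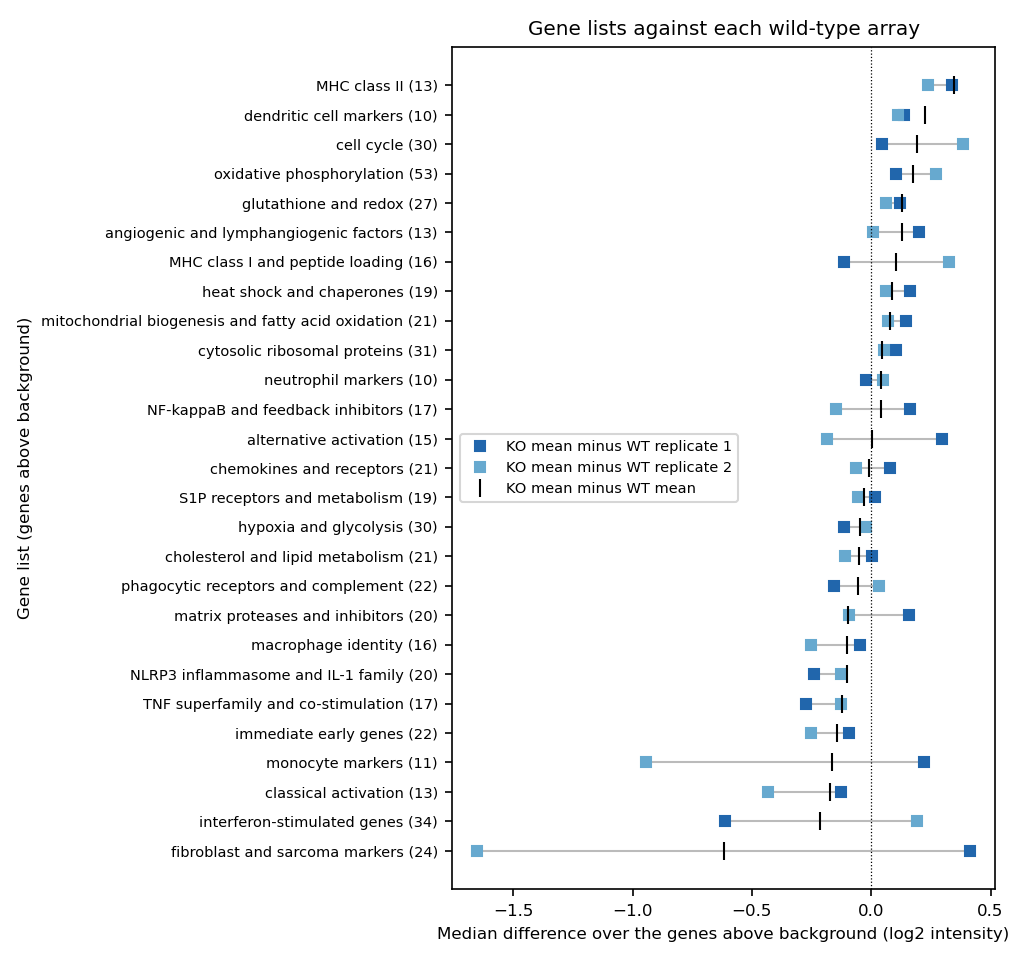
Median difference over the genes of each list (x axis, log2 intensity) for the KO mean against the first WT array (dark squares), against the second (light squares) and against their mean (black ticks), with the number of genes in brackets. MHC class II stays on the higher side at 0.34 and 0.24, whereas interferon-stimulated genes (-0.61 and 0.19) and fibroblast and sarcoma markers (0.41 and -1.65) change side with the WT array.

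The genes called depended on which WT array was used. Without the first WT array, limma called 47 genes at an adjusted p under 0.05, 46 of them lower in KO. Of these 47, 42 were in the class that rests on the second WT array only and 8 were on the fibroblast and sarcoma list. They included Dlk1 (adjusted p = 0.00229), Mgp (adjusted p = 0.00229), Ccn1 (adjusted p = 0.00892), Sparc (adjusted p = 0.0123) and Col1a1 (adjusted p = 0.0123). The single gene called higher was Gdpd3, at a difference of 2.55 from the remaining WT array (adjusted p = 0.0133). Without the second WT array, limma called 14 genes, all higher in KO, 8 of which were in the class past 1.5-fold from both WT arrays. They included Ctsk (adjusted p = 0.00837), Slc9b2 (adjusted p = 0.0224), Lpl (adjusted p = 0.0224), Mmp9 (adjusted p = 0.0224), Bdh2 (adjusted p = 0.0342), Nrp2 (adjusted p = 0.0461) and Igf2r (adjusted p = 0.0342). In both fits the lone WT array is assumed to vary like the KO pair. Leaving out either KO array called 0 genes.

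The PyMT breast tumours, from female mice and hybridized on another BeadChip, share no control arrays with this comparison. Limma called 0 of 12581 genes (0%) for a difference between the KO effects in the 2 tumours (smallest adjusted p = 0.605), and 751 (5.97%) had an unadjusted p under 0.05. Of the 116 genes higher in KO from both WT arrays in MCA, 91 were above background on at least 2 of the 4 PyMT arrays, and 14 of these (15.4%) were past 1.5-fold above both WT arrays there too, against 605 of 10544 genes (5.74%). Of the 68 lower genes, 10 of 62 (16.1%) were past 1.5-fold below both WT PyMT arrays, against 700 of 10544 (6.64%). Opposite calls were 7 of 91 (7.69%), against 6.64% of all genes, and 6 of 62 (9.68%), against 5.74%. Among the genes on the same side in both tumours, Gdpd3 differed by 2.09 ± 0.34 in MCA and 1.74 ± 0.58 in PyMT, Xpr1 by 1.34 ± 0.29 in MCA and 1.19 ± 0.44 in PyMT, Nrp2 by 1.94 ± 0.55 in MCA and 1.21 ± 0.75 in PyMT, Pmp22 by 1.10 ± 0.19 in MCA and 1.39 ± 0.39 in PyMT, and Tnfsf9 by -1.01 ± 0.19 in MCA and -0.78 ± 0.18 in PyMT. Each MCA SE is from the fit of the 4 MCA arrays and each PyMT SE from the fit of all 4 groups. The SEs of the 2 tumours therefore do not compare their spreads. In the fit of all 4 groups the SE of Gdpd3 was 0.58 in both tumours and that of Fam102a 0.70. Lpl, above background on all 4 PyMT arrays, differed there by 0.13 ± 0.42. Ctsk, Slc9b2 and Bdh2 were above background on 0 of the 4 PyMT arrays, so no difference is given for them there. Of the 24 genes named by smallest p, 7 lay on opposite sides in the 2 tumours. Fam102a, with the smallest p of the class, differed by 1.42 ± 0.19 in MCA and -1.53 ± 0.70 in PyMT, and Josd1 by -0.86 ± 0.21 in MCA and 1.06 ± 0.20 in PyMT. Src, Sipa1l1 and Hip1 were at -0.38, 0.38 and 0.55 in PyMT, and Abcb4 and Tubd1, each above background on only 1 PyMT array, at -0.12 and 0.70. Because these genes were chosen by their MCA difference, that contrast between tumours is a description.

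**Figure D5:**
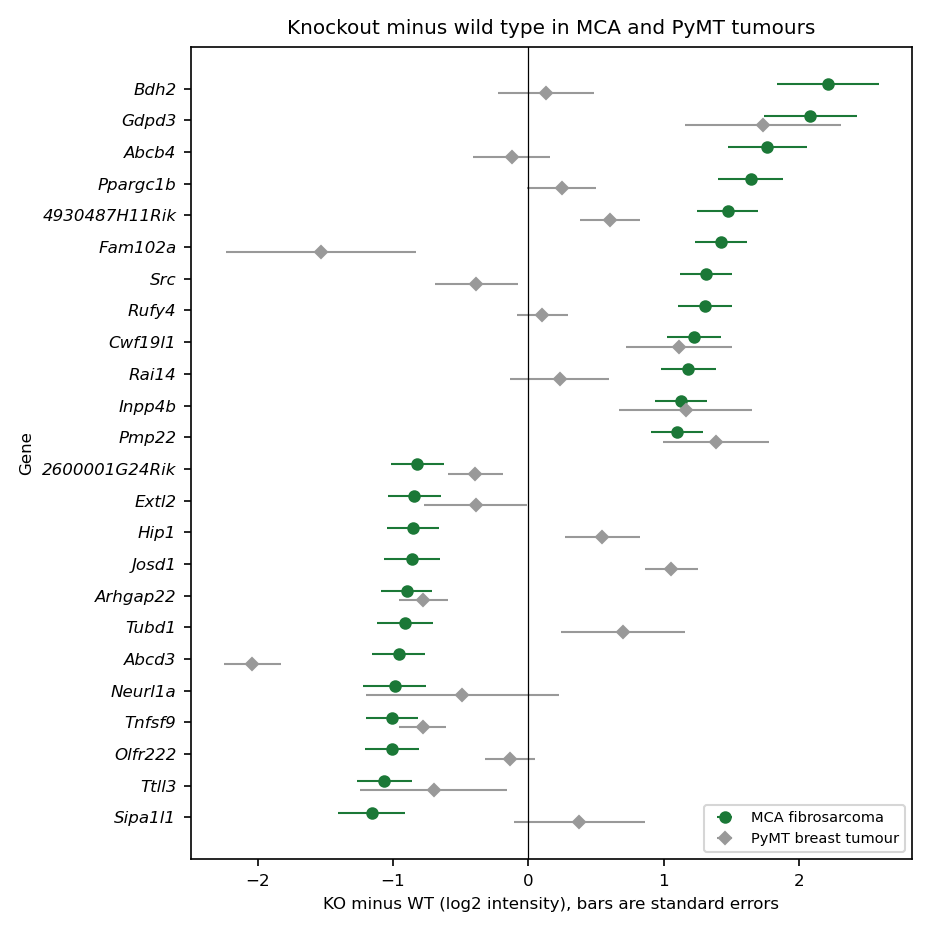
KO minus WT (x axis, log2 intensity) with SE for the genes named by smallest p in the class past 1.5-fold from both MCA WT arrays, in MCA tumours (circles) and PyMT tumours (diamonds, SE from a fit of all 4 groups). Gdpd3, Inpp4b, Pmp22, Cwf19l1, Tnfsf9, Arhgap22 and Abcd3 lie on the same side in both tumours at 0.78 or more, whereas Fam102a (-1.53) and Josd1 (1.06) lie on the opposite side in PyMT. Bdh2, Rufy4 and Olfr222 were above background on 0 of the 4 PyMT arrays, so their diamonds near 0 carry no measured signal.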

How the data were processed

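The members and gene lists were chosen with earlier results of these data known. The deposited intensity per probe is a mean bead signal on a linear scale, neither normalized nor background-subtracted, and the deposited p-value per probe tests it against background, both per the file headers. Per the labels' protocols, RNA was isolated with the RNeasy micro kit and amplified, with 2 amplification systems named (µMACS SuperAmp and NuGEN Ovation Pico) and no word on which arrays had which. Normalized linear intensity values, also deposited by the authors with no method named in these sources, served as an alternative. All 4 arrays sit on 1 BeadChip. Nothing in the labels ties replicates to separate animals or pools. P-values therefore reflect only how far these arrays spread, possibly for technical reasons, and so few arrays limit the precision.

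Log2 values were computed from the deposited intensity with neqc of limma 3.58.1 in R 4.3.3 (tables read by data.table, version 1.17.8), with an offset of 16, over all 12 arrays. The platform annotation gave a single symbol for 35784 of 46237 probes and several for 0, and it did not list 10453. RefSeq names of GRCm38.p6 replaced 937 older symbols. Only probes detected (p under 0.05) on 2 or more of the 4 arrays were kept, and the brightest probe stood for its gene. Other probes are given for the genes where they differed most. A limma model of the 4 arrays (residual df 2, prior df 4.01) tested KO against WT, two-sided, with Benjamini-Hochberg adjustment. The difference between tumours used a model of 4 groups. Where a gene was below background on both arrays of a group, only a lower bound of its fold is given. The scripts were tested on simulated data. Replicate numbers did not pair the arrays (correlation of same-numbered deviations 0.083, with only 2 pairs). The genes named were the 12 per direction with the smallest limma p in the class past 1.5-fold from both WT arrays, 6 per direction with the largest difference resting on each single WT array, S1pr1, Nlrp3, Il1b and Tnfsf9, and members of each list with the smallest p. Other named genes, among them those kept under every processing setting, were picked after their values were seen. Alternatives were the background correction, the normalization, the filter, the choice of probe, the shared spread, the replicate block, the repeat array and each array left out.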

Additional observations from a re-analysis of the deposited data

How the results depend on the processing

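Limma called 0 genes for KO against WT under every alternative that kept both WT arrays. The count was 47 without the first WT array and 14 without the second. Genes at an unadjusted p under 0.05 numbered 1079 with no detection filter and 205 with a spread shared by 4 groups, and 224 to 955 with 1 array left out. The replicate block gave 0 called genes and 451 at an unadjusted p under 0.05, and the repeat array 0 and 441. For a difference between tumours every setting called 0 genes, against 751 at an unadjusted p under 0.05.

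The classes shrank with normexp, with no correction and with the authors' values, and the cause was not tested. All 184 genes past 1.5-fold from both WT arrays kept their sign under each of these settings. That class held 223 genes with median scaling and 229 with the 4 MCA arrays normalized on their own. Genes past 1.5-fold from both WT arrays numbered 41 with normexp (offset 50 in place of 16), 25 with no correction and 22 with the authors' values. Those resting on the first WT array only numbered 35, 17 and 17, and those on the second only 48, 24 and 28. Without 1 KO array the classes held 285 to 598, 174 to 308 and 331 to 388 genes, since a lone array spreads more than a mean of 2. Without a WT array the classes have no value.

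Single genes changed sign almost only when an array was left out, and the cause was not tested. The ranges were -2.47 to 0.30 for Ch25h, -2.36 to 0.50 for AA467197 (0.10 without the second KO array), -0.57 to 2.73 for Igf2r, -0.052 to 2.02 for S100a9, -0.90 to 0.024 for Isg15, -1.22 to 0.12 for Oas3 and -1.25 to 0.31 for Usp18. They were -4.39 to 0.79 for Dlk1, -3.56 to 0.16 for Saa3, -3.19 to 0.30 for Peg10, -2.68 to 1.08 for Sparc, -2.61 to 1.47 for Col1a1, -2.41 to 1.06 for Col3a1, -2.72 to 0.22 for Ace and -3.00 to 0.49 for Ccn1. Genes near 0 also changed sign: Csf1r ranged from -0.27 to 0.14 and read 0.089 with the mean of its probes, Cd68 ranged from -0.066 to 0.095 and read -0.016 with median scaling, and Adgre1 ranged from -0.24 to 0.14. Signal over background limits the size of a difference for dim genes: of the 184 genes past 1.5-fold from both WT arrays, 11 higher and 2 lower ones were below background on both arrays of the lower group.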
